A study of Mus musculus with 12 samples.

Results

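The change from embryonic stem cells (ESCs) to embryoid bodies (EBs) was described in wild-type (WT) mouse cells, gene by gene, as the log2 difference in transcript level. Its members are the entries of the deposited table, 1 for each RefSeq transcript, whose mean level over the 6 WT libraries was at least 50, which kept 12064 of 19708 entries. Krtcap3 (mean 50.02) and Hhipl2 (50.1) lay just inside that limit, and Lrfn2 (49.997) and Chrna7 (49.957) just outside. The libraries hold the 3′ ends of polyadenylated RNA from ESCs and EBs of 2 genotypes, WT and Mettl3 knockout (KO), each sampled 0, 4 and 8 h after actinomycin, which blocks transcription. All cells carry the strain label C57BL/6, and each genotype, cell type and hour has 1 library. WT ESCs were held in the naive state in serum-free N2B27 medium with the cytokine LIF and a pair of inhibitors called 2i: CHIR99021, which blocks the kinase GSK3 and so turns on Wnt signalling, and PD0325901, which blocks MEK and so ERK signalling. WT EBs were grown from ESCs as floating aggregates in a medium with serum, for 8 to 21 days per the labels, which do not say on which day these libraries were taken, and name neither the ESC line nor its sex. Nothing in the labels says that the 3 hours of a cell type are separate cultures. P-values here measure how far the EB minus ESC difference varied over the 3 hours. That variation holds technical scatter and any real change with time after actinomycin alike, and is not a spread between replicate cultures.

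In an EB, cells left without the signals that hold naive pluripotency form an outer layer of extraembryonic endoderm around a core that goes on to the germ layers. Visceral endoderm, the layer that feeds the early embryo, takes up maternal protein through endocytic receptors, digests it in lysosomes and secretes serum proteins, while parietal endoderm lays down the thick basement membrane called Reichert's membrane. Naive ESCs are marked by the transcription factors Nanog, Esrrb, Tfcp2l1, Klf2, Klf4, Klf5 and Zfp42, and Pou5f1 and Sox2 also persist in the later, formative and primed states.

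Levels in single libraries are given below as deposited, in the file's own units and always in the order 0, 4 and 8 h. A change is the log2 difference EB minus ESC after the columns were scaled by the median ratio, with 10 added to each scaled level. It is given at 0 h, the only hour without actinomycin, as a difference of 2 single libraries with no test, and over the 3 hours as limma's paired estimate ± its standard error (SE) with the Benjamini-Hochberg adjusted p over the 12064 entries. Genes past an adjusted p of 0.05 are called higher or lower. On this scale 690 entries (5.72%) were called higher in EBs and 660 (5.47%) lower, and 674 and 655 of them had 1 sign at all 3 hours. At 0 h alone 411 entries (3.41%) were at least 4-fold higher and 126 (1.04%) at least 4-fold lower, of which 257 and 56 were also called over the hours. Leaving out the 4 h pair left 228 higher and 119 lower calls, against 825 and 808 without the 0 h pair and 463 and 439 without the 8 h pair, so each gene that loses its call that way is given below with its value. Fewer pairs also leave fewer residual degrees of freedom (2 in the full fit), and a call can be lost at an almost equal estimate. The variance prior, which limma draws from all entries, counted for 41.5 degrees of freedom in the full fit. Each SE and p-value thus rests mostly on the spread of other entries. The full calls split into 300 higher and 2192 lower on the levels as deposited, 924 and 495 under equal column totals, and 1513 and 291 when scaled on entries with a mean level of at least 1000.

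The libraries differ in ways that touch these values. Taking the steps of the values as reads, WT ESC libraries held 307442 to 480158 read equivalents and WT EB libraries 565027, 376236 and 208874. Scale factors were 1.48, 1.24 and 1.11 for ESCs and 1.15, 0.79 and 0.54 for EBs. Among 1426 genes of odorant, pheromone and taste-amine receptor, hair keratin-associated and defensin families, for which no expression is known in these cells, 6.80 to 9.61% had a level above 0 in ESCs and 26.7 to 34.2% in EBs, with mean levels of 3.36 to 5.62 against 8.89 to 14.4. The median change followed the level: at 0 h it ran from 0.35 for entries with a mean level of 50 to 100 to -0.17 for 1000 to 5000, and at 8 h from 1.12 to -0.86. Lower calls made up 0.0848% of the former and 21.3% of the latter, and 23% of entries of 5000 and over. List medians below are therefore given at 0 h, and small differences of highly expressed groups are given with their values under other scalings. Counts of called members below were not matched by level and are to be read beside the shares just given. The part of depth and background in these differences was not tested.

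**Figure D1:**
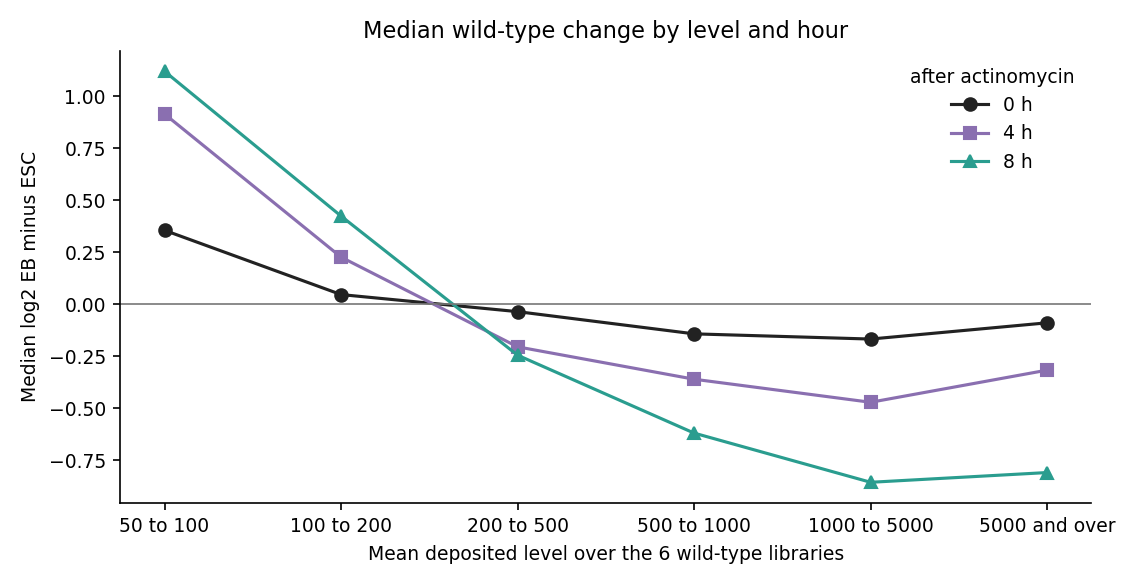
Median log2 change from ESC to EB (vertical axis) of all 12064 entries, split by mean deposited level over the 6 WT libraries (horizontal axis), at 0, 4 and 8 h after actinomycin (1 line an hour). The medians run from 0.35 down to -0.17 at 0 h and from 1.12 down to -0.86 at 8 h, so the dependence on level is smallest before actinomycin.

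Genes of visceral endoderm were among the largest rises, and none of those tested was called lower. Of 19 secreted-protein genes of this layer in the table, 12 passed the limit on level, and 10 of them were called higher and 0 lower, against 5.72% of all entries called higher. Of 17 uptake and lysosome genes, 16 passed it, with 11 higher and 0 lower. Leaving out 1 pair gave 8 to 10 and 10 to 11 calls in these lists. Their median changes at 0 h were 4.06 and 2.12, against 0.04 for all entries, and the first is 3.19 when genes at 0 in ESCs are set at the bound that 3 reads allow. After scaling, all 3 EB libraries lay above all 3 ESC libraries for 11 of 12 and 13 of 16 of these genes, which held for 12.5% of all entries. In such bulk libraries, more cells of a type and more RNA per cell cannot be told apart. Both lists, like the others here, were chosen with earlier results of these data known.

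The promoters of 2 genes that rose are shown because they hold the letters bound by GATA factors, endoderm regulators treated below, written in capitals. Each window runs from 250 bases before to 50 after the RefSeq start, 5′ to 3′ on the gene's strand (RefSeq, build GRCm38.p6). The letters AGATAAG, read on either strand (CTTATCT on the other), stand in those of Dab2 (chr15:6299539-6299838, plus strand) and Krt8 (chr15:102004293-102004592, minus strand).
Dab2: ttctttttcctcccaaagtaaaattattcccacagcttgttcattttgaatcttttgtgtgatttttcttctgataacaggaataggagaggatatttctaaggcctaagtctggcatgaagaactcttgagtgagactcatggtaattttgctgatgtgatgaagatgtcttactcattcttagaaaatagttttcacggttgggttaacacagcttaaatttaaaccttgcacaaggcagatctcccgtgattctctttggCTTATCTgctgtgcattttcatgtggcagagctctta
Krt8: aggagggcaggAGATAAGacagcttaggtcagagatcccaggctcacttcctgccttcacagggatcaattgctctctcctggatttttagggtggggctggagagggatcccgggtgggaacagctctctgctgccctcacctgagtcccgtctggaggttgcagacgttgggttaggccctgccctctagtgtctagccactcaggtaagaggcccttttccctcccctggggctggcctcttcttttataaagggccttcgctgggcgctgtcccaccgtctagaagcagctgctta
Windows were matched for 527 of 689 symbols called higher and for 9503 of 12020 symbols kept. The GATA letters were found in 2.59% of 694 windows of genes called higher and in 1.8% of 12216 windows of all genes kept. In the 676 windows of genes called lower the share was 1.92%. A match is a description of these letters and not a binding site. The median ratio of observed to expected CpG was 0.602 in windows of genes called higher, 0.743 in those called lower and 0.747 in all.

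Afp, alpha-fetoprotein, a carrier made by yolk sac endoderm (chromosome 5, 90490714 to 90508907 in RefSeq's GRCm38.p6 annotation, as all positions here), stood at 37.2, 49.5 and 119.7 in ESCs and 2449.5, 1879 and 1644 in EBs. Counting error alone gives 95% Poisson intervals of 3.12 to 152 for the ESC and 2090 to 2850 for the EB level at 0 h. Every EB library was more than 10 times above every ESC library. The change was 5.93 at 0 h and 5.41 ± 0.37 over the hours (limma adjusted p 5.04e-15). Ttr, transthyretin, which carries thyroid hormone, stood at 59.7, 76.7 and 0 in ESCs and 2643, 1739 and 1334 in EBs, with no overlap and a change of 5.53 at 0 h and 6.14 ± 0.43 over the hours (adjusted p 7.35e-15). The trypsin inhibitor gene Spink1 was already at 218, 213 and 239 in ESCs and reached 5053, 4483 and 3486 in EBs (4.82 at 0 h, 4.88 ± 0.31 over the hours). Lipid carriers rose with them. Apoa1, the main protein of high-density lipoprotein, was at 0, 22.8 and 28.8 in ESCs and 925, 861 and 843 in EBs. As its ESC level at 0 h is 0, the ratio at that hour can only be bounded, at 3 reads, as at least 17.4-fold higher. Apom, another lipoprotein gene, was listed at 0 in all 3 ESC libraries and at 501, 480.4 and 313 in EBs, at least 9.41-fold higher at 0 h. Rbp4, the plasma carrier of retinol (change 4.99 ± 0.49), Fgb, the fibrinogen beta chain (4.06 ± 0.73), and Apob, the scaffold of low-density lipoprotein (3.50 ± 0.56), were called too. Mttp, which loads lipid onto that scaffold, rose by 1.60 ± 0.48 and Trf, transferrin, by 1.21 ± 0.41, the smallest rise of the called members. Apoa2 and Apoe were not called, and Alb, Ambp, Apoa4, Cfi, Fga, Fgg and Soat2 were below the limit on level. Leaving out pairs, Mttp lost its call without the 0 h pair (1.03), and Trf without any of the 3 (1.33, 1.15 and 1.16 without 0, 4 and 8 h).

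S100g, which encodes the calcium-binding protein calbindin-D9k (chromosome X, 162961992 to 162964599), made the largest rise at 0 h of all named genes. Its level was 0, 47.5 and 32.1 in ESCs and 3901, 2894 and 2169 in EBs, at least 73.2-fold higher at 0 h, with a change of 7.12 ± 0.40 over the hours (adjusted p 1.48e-17). Endocytic receptor genes rose as a set of partners. Cubn, cubilin, was at 26.6, 0 and 111 in ESCs and 583, 349 and 304 in EBs (4.03 ± 0.50). Amn, which anchors cubilin in the membrane, was at 101, 85.6 and 85.1 in ESCs and 739, 599 and 547 in EBs (3.30 ± 0.39), and Lrp2, megalin, at 175, 75.2 and 80.5 and 535, 324 and 318 (2.44 ± 0.41). For none of the 3 did the groups overlap. Dab2, the adaptor that links these receptors to clathrin, was at 17.0, 20.8 and 0 in ESCs and 445, 753 and 446 in EBs (4.21 at 0 h, 5.26 ± 0.51 over the hours, adjusted p 1.42e-10). Lysosomal protease genes rose too: Ctsh, cathepsin H, by 5.43 ± 0.41, Lgmn, legumain, by 2.93 ± 0.30 and Ctsl, cathepsin L, by 2.60 ± 0.30. Ctsz, Cd63 and Lamp2 were also called higher. Ctsb, Lamp1, Npc2, Psap and Slc39a4 were not called, and Pdzk1 was below the limit on level. No call among the 8 genes valued here was lost when a pair was left out.

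Genes of the basement membrane and of parietal endoderm rose as a block, with 14 of 17 called higher and 0 lower and a median of 2.15 at 0 h. Among all entries 5.72% were called higher. Col4a1 and Col4a2, the chains of type IV collagen, lie head to head on chromosome 8. Col4a1 was at 83.1, 278 and 186 in ESCs and 3593, 3917 and 3583 in EBs (5.57 at 0 h, 5.07 ± 0.33 over the hours, adjusted p 1.41e-15), and Col4a2 at 152, 41.1 and 46.5 and 1826, 2854 and 1789 (5.41 ± 0.40). No EB library overlapped an ESC library for either chain. The 3 chains of the embryonic laminin rose by unequal amounts: Lama1 by 4.15 ± 0.39, Lamb1 by 3.83 ± 0.30 and Lamc1, the chain shared with most laminins, by 1.81 ± 0.30. At 0 h their levels were 298, 476 and 928 in ESCs and 1595, 4737 and 2144 in EBs, changes of 2.73, 3.64 and 1.56. Serpinh1, the collagen chaperone Hsp47, was the most abundant of the list, at 2551, 2612 and 2334 in ESCs and 18924, 18831 and 16769 in EBs (3.55 ± 0.27). The collagen-modifying enzymes P4ha2 and Plod2 and the linker Nid2 were called higher as well. Plat, tissue plasminogen activator, was at 0, 16.3 and 0 in ESCs and 1124, 1001 and 672 in EBs, at least 21.1-fold higher at 0 h. Pth1r, the receptor through which parathyroid hormone-related protein turns endoderm into the parietal kind, was at 23.0, 49.5 and 28.8 and 1599, 1477 and 1168 (5.65 ± 0.39). Thbd, thrombomodulin (2.97 ± 0.63), and Fst, follistatin (3.06 ± 0.40), rose too. Sparc, a matrix protein high in both cell types, went from 3036, 3458 and 3482 to 6758, 7347 and 5596 (1.66 ± 0.27) and lost its call without the 4 h pair (1.62). Hspg2, Nid1 and Snai1 were not called. Leaving out 1 pair gave 11 to 15 calls in the list.

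**Figure D2:**
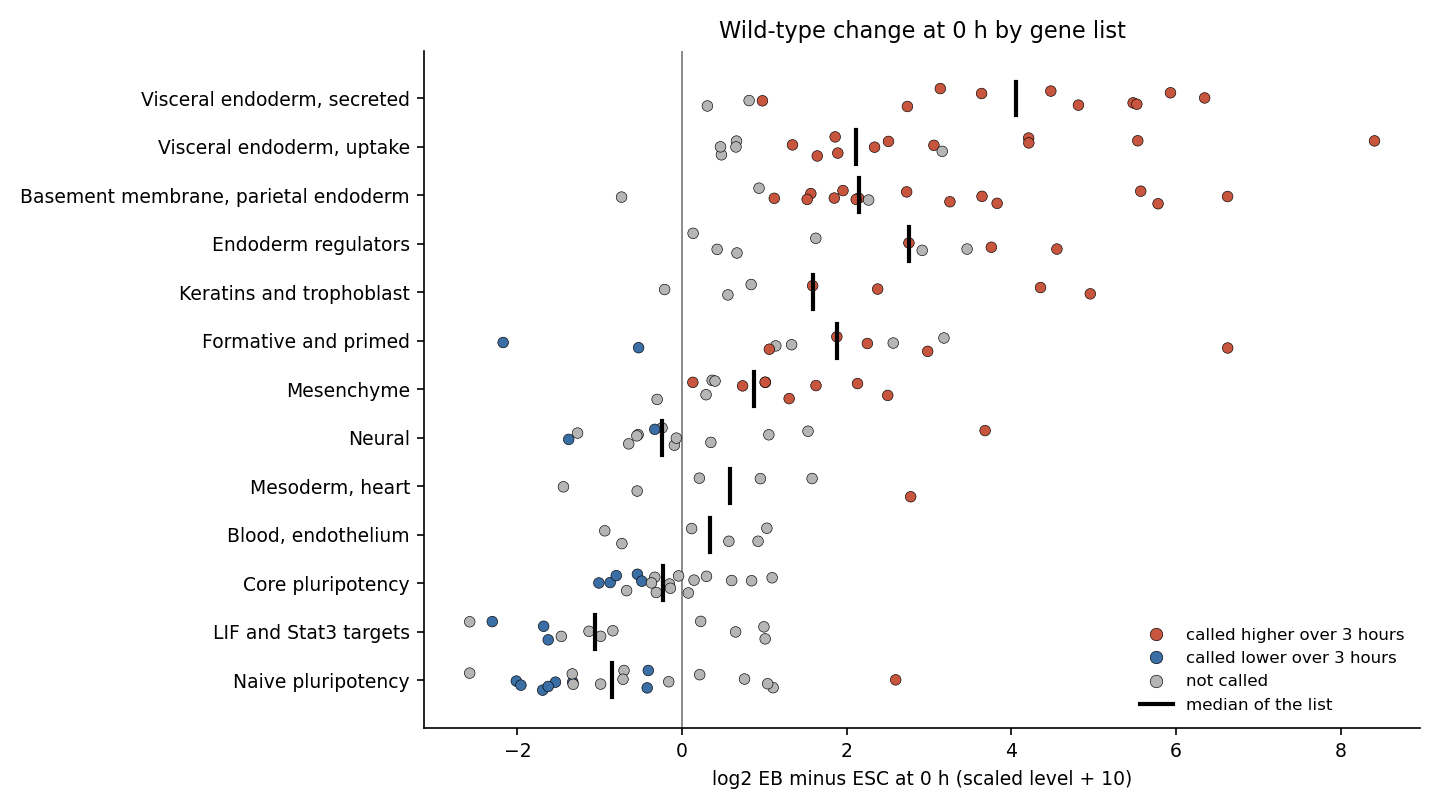
Log2 change from ESC to EB at 0 h (horizontal axis) for each gene of 13 lists that passed the limit on level (1 point a gene), coloured by its call over the 3 hours, with the list median as a bar. The secreted visceral endoderm list has its median at 4.06, and the naive and LIF lists have theirs at -0.85 and -1.06.

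The transcription factor genes that set up endoderm were low in both cell types, and few were called. Of these 12 genes, 9 passed the limit on level, 3 were higher and 0 lower, with a median of 2.76 at 0 h, or 2.28 with the gene at 0 in ESCs at its bound. Over the hours the list median was 1.65, and 0.24 with 1 gene called under cyclic loess scaling. Cited1, an X-linked gene of a transcriptional coactivator, was at 106, 113 and 116 in ESCs and 1254, 1562 and 792 in EBs, with no overlap (3.76 at 0 h, 3.91 ± 0.36 over the hours, adjusted p 3.53e-11). Gata4, a GATA factor of all extraembryonic endoderm, stood out at 0 h, with 395 in EBs against 62.9 in ESCs, a change of 2.76, and its change after scaling was 1.92 at 4 h and 0.61 at 8 h. Its rise of 1.76 ± 0.50 was not called without the 0 h pair (1.27) or without the 4 h pair (1.68). Sox17 was at 14.2, 0 and 0 in ESCs and 237, 103 and 14.4 in EBs, a change of 3.05 ± 1.06 that missed the threshold (adjusted p 0.0517) but passed it without the 8 h pair (3.64, adjusted p 0.000715), under equal column totals and under 8 other settings. Gata6 was at 15.2 against 164 at 0 h, and at 69.3 against 16.1 at 4 h (-1.11), where 16.1 is worth 1 read. It was not called (1.01 ± 0.81, limma adjusted p 0.432). Hnf4a, Hhex and Sox7 were not called, and Foxa2, Foxa1 and Cxcr4 were below the limit on level.

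Simple-epithelium keratins rose with the endoderm genes. Krt8 (chromosome 15, 101996711 to 102004342), whose protein pairs with that of Krt18 in the first filaments of the embryo, was at 108, 195 and 101 in ESCs and 2943, 3075 and 2143 in EBs (4.96 at 0 h, 4.93 ± 0.34 over the hours, adjusted p 5.04e-15). Krt18 went from 91.8, 0 and 70.7 to 1677, 1505 and 732 (5.38 ± 0.46) and Krt19 from 109, 48.5 and 24.2 to 487, 336 and 289 (3.21 ± 0.45). All 3 had EB libraries wholly above ESC libraries. They and the factor gene Tfap2c (1.82 ± 0.52, which overlapped and lost its call without the 0 h pair, 1.94, or the 4 h pair, 1.68) were the 4 called of 7 kept of a 14-gene trophoblast list, with 0 lower. Cdx2, Elf5, Esx1, Ascl2, Gata2, Krt7 and Tpbpa of that list were below the limit on level, and Gata3, Tfap2a and Plac1 were not called. The 3 keratins are not particular to trophoblast, since simple epithelia in general, visceral endoderm included, express them.

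Further genes with the largest rises encode membrane and signalling proteins. Car4, a carbonic anhydrase tethered to the cell surface, was at 0, 40.6 and 32.7 in ESCs and 1125, 1057 and 848 in EBs, at least 21.1-fold higher at 0 h (5.65 ± 0.43 over the hours). Tinagl1, a matrix protein gene, reached 686, 496 and 523 from 0, 63.8 and 0, at least 12.9-fold higher at 0 h. Grem1, a secreted BMP antagonist, was at 0, 17.8 and 131 in ESCs and 605, 1025 and 881 in EBs, and the chloride channel gene Clic6 at 17.9, 21.8 and 148 and 1159, 795 and 843. The Grem1 and Clic6 levels in ESCs were highest at 8 h, and all EB levels still lay above them. In all, 14 genes were listed at 0 in the 3 ESC libraries and 0 genes in the 3 EB libraries. Such genes passed the limit on level only through their EB levels. Detection differed too, as 1 read is worth 23.0, 24.7 and 32.7 in WT ESCs and 14.7, 16.1 and 17.6 in WT EBs. The families without known expression were also above 0 more often in EBs. The part of detection in these counts was not tested. A level of 0 in ESCs at 0 h allows up to 68.9, the value of 3 reads, for counting error only. Besides Apom, the highest at 0 h were the water channel gene Aqp8 at 463 (at least 8.7-fold higher), the peptide hormone gene Cck at 396 (7.44-fold), Cyp26a1, whose enzyme breaks down retinoic acid, at 385 (7.22-fold), Fxyd3 at 232 (4.36-fold) and the iron exporter gene Slc40a1 at 218 (4.09-fold), all as bounds. Slc40a1 was not called without the 4 h pair (3.82).

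**Figure D3:**
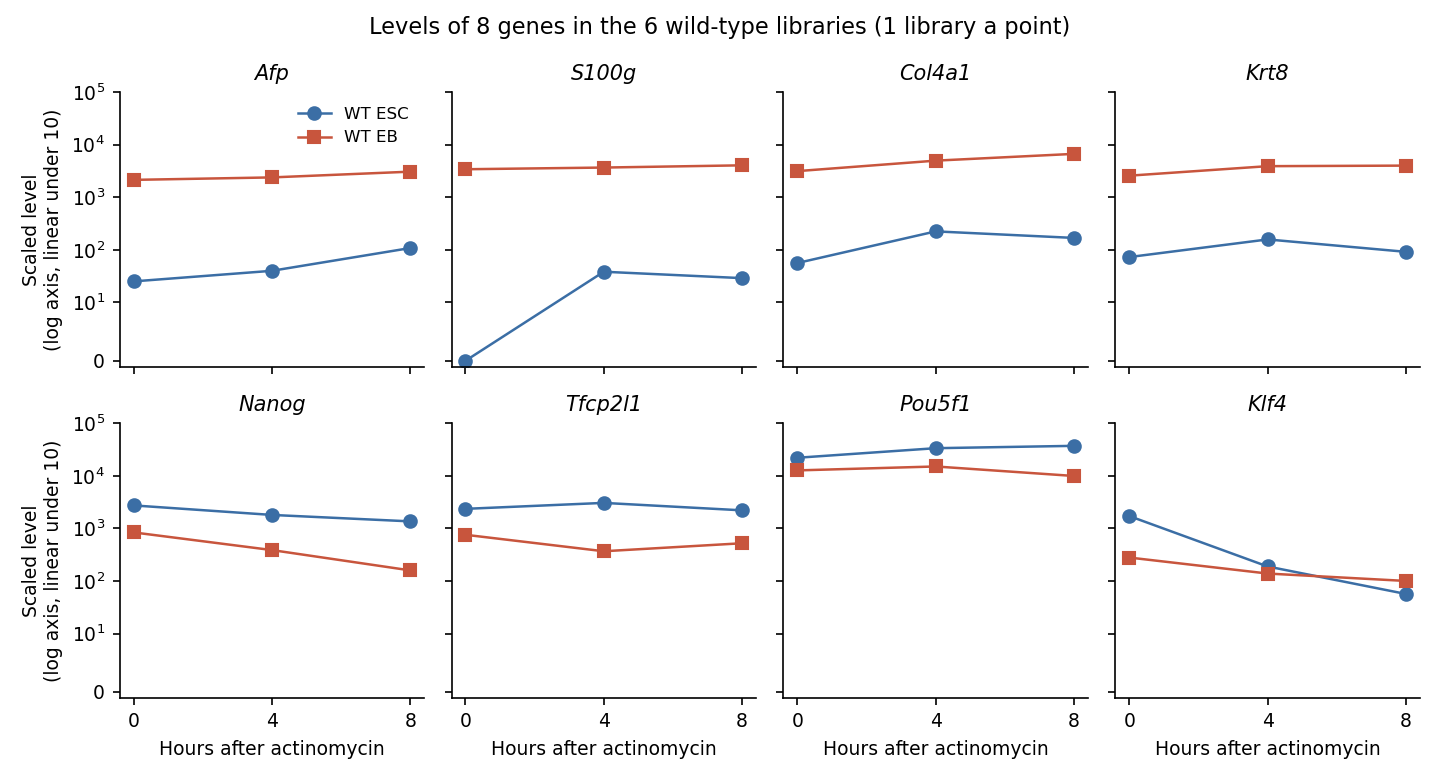
Level of 8 genes in each of the 6 WT libraries after median-ratio scaling (vertical axis, logarithmic above 10 and linear below) against hours after actinomycin (horizontal axis), 1 point a library, circles for ESCs and squares for EBs. Afp, S100g, Col4a1 and Krt8 lie higher in EBs at every hour and Nanog, Tfcp2l1 and Pou5f1 lower. Klf4 falls in ESCs from far above the scaled EB level at 0 h to below it at 8 h (changes of -2.58 and 0.73). Its deposited levels at 8 h were 62.8 and 53.8, where 3 reads are worth 98.1 in ESCs and 52.8 in EBs.

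The naive network fell, with exceptions. Of 20 naive genes, all kept, 8 were called lower and 1 higher, against 5.47% of all entries called lower, and the median at 0 h was -0.85. The genes called lower had mean levels from 881 (Tet2) to 4187 (Tdh). Entries of 500 to 1000 had 12% called lower and a median of -0.14 at 0 h, and those of 1000 to 5000 had 21.3% and -0.17. Nanog (chromosome 6, 122707489 to 122714633) was at 4057, 2239 and 1508 in ESCs and 963, 306 and 85.5 in EBs, every EB library below every ESC library, with a change of -1.69 at 0 h and -2.30 ± 0.33 over the hours (adjusted p 1.7e-06). Its promoter is shown as that of the listed factor with the largest fall over the hours, though at 0 h those of Klf4 and Zfp42 were larger. The octamer letters TTTGCAT bound by the Pou5f1 protein, in capitals, stand in the window from 250 bases before to 50 after its start (chr6:122707239-122707538, plus strand).
Nanog: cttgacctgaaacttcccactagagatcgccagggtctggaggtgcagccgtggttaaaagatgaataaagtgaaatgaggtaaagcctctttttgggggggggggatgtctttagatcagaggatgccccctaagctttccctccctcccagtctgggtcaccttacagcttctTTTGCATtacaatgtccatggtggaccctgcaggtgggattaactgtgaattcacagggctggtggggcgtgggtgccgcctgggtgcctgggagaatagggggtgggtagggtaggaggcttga
The same letters, on either strand, were in 3.70% of 676 windows of genes called lower and 3.53% of all. They were in 4.9% of 694 windows of genes called higher, so they did not set the falling genes apart. Tfcp2l1, a factor downstream of both LIF and GSK3 inhibition, was at 3491, 3793 and 2444 in ESCs and 867, 290.4 and 280.4 in EBs, again without overlap (-1.62 at 0 h, -2.23 ± 0.32 over the hours, adjusted p 1.67e-06). Tcl1, a cofactor of the kinase Akt, was at 2809.6, 2669.7 and 1959 and 529.9, 562 and 342 (-2.01 at 0 h, -1.68 ± 0.31 over the hours, adjusted p 0.000175).

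For Esrrb and Klf4 the difference depended on the hour, and for Tet2 the values were close at the 3 hours (-1.54, -1.83 and -1.64). Zfp42, also called Rex1, stood at 8661, 977 and 408 in ESCs and 1717, 218 and 71.8 in EBs, so that the groups overlapped while each pair differed in 1 direction (-1.96 at 0 h, -1.61 ± 0.33 over the hours, adjusted p 0.000759). Esrrb was at 3186 against 1852 at 0 h, a change of -0.41, and at 959 against 84.4 at 8 h (-2.39), with -1.68 ± 0.35 over the hours. Most of its difference lay in the treated libraries. Tet2, an oxidase of 5-methylcytosine, changed by -1.67 ± 0.34 and Klf5 by -1.11 ± 0.32. Calls were lost without the 4 h pair for Esrrb (-1.40), Tet2 (-1.59) and Klf5 (-0.88) and without the 0 h pair for Klf5 (-1.01). Klf4 was at 2547, 235 and 62.8 in ESCs and 320.1, 109 and 53.8 in EBs. Its difference was -2.58 at 0 h and 0.73 at 8 h after scaling. At 8 h, 3 reads are worth 98.1 in ESCs and 52.8 in EBs, and the deposited levels did not turn. Klf4 was not called over the hours (-0.76 ± 0.45) but was without the 8 h pair (-1.50, limma adjusted p 0.00929). Klf2 did not differ past the threshold (5549.9, 214 and 125 against 3836, 307 and 151, 0.73 ± 0.35, adjusted p 0.166), nor did Tbx3 (-1.32 at 0 h, -0.48 ± 0.39 over the hours). Tdh was the remaining gene called lower, and 4 of the list were called lower without the 4 h pair. Dppa3, the naive and germ-line gene also called Stella, rose instead, from 129, 30.2 and 162 to 659, 381 and 138 (2.60 at 0 h, 2.40 ± 0.46 over the hours, adjusted p 0.000258), a call lost without the 4 h pair (1.69).

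Core pluripotency genes moved less at 0 h. Of 18, 5 were called lower and 0 higher, with a median of -0.23 at 0 h. Among all entries 5.47% were called lower, but 21.3% of those of 1000 to 5000 and 23% of those of 5000 and over. This count was not matched by level. EB libraries lay wholly below ESC libraries for 11.8% of all entries. Pou5f1, which encodes Oct4, was at 32682, 41599 and 41154 in ESCs and 14528, 11885 and 5332 in EBs, the EB libraries all lower (-0.80 at 0 h, -1.28 ± 0.26 over the hours, adjusted p 0.000694). Sox2 did not differ past the threshold, with 2671, 235 and 356 in ESCs and 2007, 248 and 91.5 in EBs (-0.07 ± 0.36, adjusted p 0.919), and the sign of that estimate turned under equal column totals (0.14), ribosomal protein genes (0.10), entries of at least 1000 (0.39) and cyclic loess (0.26). Tdgf1, the Nodal co-receptor Cripto, changed by -1.55 ± 0.29, the TGF-beta family ligand gene Gdf3 by -1.26 ± 0.32 and Dppa5a by -1.25 ± 0.27. Without the 4 h pair the calls of Pou5f1 (-1.35), Tdgf1 (-1.66), Gdf3 (-1.24) and Dppa5a (-1.23) were lost, and Rif1, the fifth gene called, with them. The list median over the hours was -0.45 and became 0.02 when scaled on entries of at least 1000, with 2 higher and 4 lower.

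Genes of the formative and primed states, which follow the naive state in the epiblast, moved both ways. Of 14 such genes, 11 passed the limit on level, with 5 higher and 2 lower and a median of 1.88 at 0 h. Otx2, the factor that opens the formative state, was at 84.9, 0 and 22.2 in ESCs and 599, 164 and 103 in EBs (2.98 at 0 h, 3.39 ± 0.56 over the hours, adjusted p 2.84e-05). Dnmt3b, the DNA methyltransferase of the epiblast, went from 1333, 1240.3 and 878 to 3829, 2835 and 1382 (1.8 ± 0.3), with no overlap in either gene. The tight-junction gene Cldn6 (3.61 ± 0.47), Sox4 (1.81 ± 0.42) and Car4, given above, were the others called higher. Sox3, X-linked, was at 410.5, 349.9 and 137 in ESCs and 61.5, 35.7 and 17.6 in EBs (-2.07 ± 0.50), and Dnmt3l, the cofactor of the methyltransferases, changed by -1.04 ± 0.27. Calls of Sox4 (1.65), Sox3 (-1.91) and Dnmt3l (-1.06) were lost without the 4 h pair. Dnmt3a, Lef1, Pou3f1 and Zic2 were not called, and Fgf5, Fgf8 and Wnt8a were below the limit on level.

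Targets of the culture signals were read next, since LIF and 2i were present for ESCs. Of 12 LIF and Stat3 genes 3 were lower and 0 higher, with a median of -1.06 at 0 h and -0.13 at 8 h. Socs3, the feedback inhibitor of the LIF receptor, was at 677, 97.0 and 65.4 in ESCs and 96.8, 28.7 and 0 in EBs, a change of -2.30 at 0 h and -2.01 ± 0.64 over the hours (adjusted p 0.0347). Bcl3, a Stat3 target, was at 751, 195 and 276 and 173, 32.2 and 30.3 (-1.79 ± 0.44), and Tfcp2l1 was the third. The groups of Bcl3 did not overlap, which held in that direction for 11.8% of all entries. Of 13 kept genes of ERK feedback 3 were higher and 1 lower. Dusp4, a phosphatase that switches ERK off, was at 143 in ESCs and 521 in EBs at 0 h (1.68 ± 0.50 over the hours), Phlda1 at 457 and 1203 (1.63 ± 0.39), and the AP-1 gene Fosl1 at 20.2 and 167 (2.72 ± 0.82). Etv4, an ETS factor that ERK signalling induces in many cells, went the other way, from 4085, 5812 and 2995 to 1133, 924 and 484 (-1.47 at 0 h, -1.68 ± 0.30 over the hours, adjusted p 7.52e-05). Spry4, another feedback inhibitor of the pathway, was at 779 in ESCs and 116 in EBs at 0 h (-2.27) and was not called over the hours (-0.72 ± 0.52). Of 10 kept Wnt targets and inhibitors 0 were higher and 1 lower: Notum, which inactivates Wnt ligands (-1.26 ± 0.39). When pairs were left out, the call of Socs3 was lost each time (-1.86, -2.54 and -1.62 without 0, 4 and 8 h). Without 0 h the calls of Fosl1 (2.72) and Dusp4 (1.46) were lost, without 4 h those of Fosl1 (2.26), Etv4 (-1.52) and Notum (-1.12), and without 8 h those of Dusp4 (1.48) and Notum (-1.13). Of 14 kept Nodal and BMP genes 2 were higher and 1 lower (Fst among the former, Gdf3 the latter), and without the 4 h pair 1 and 0.

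The largest falls at 0 h were outside the pluripotency lists. Mras, a Ras-family GTPase gene, was at 1289, 821 and 813 in ESCs and 56.2, 48.0 and 37.6 in EBs (-3.90 at 0 h, -3.45 ± 0.40 over the hours, adjusted p 1.44e-08), and Laptm5, which encodes a lysosomal membrane protein, at 5859.9, 5541 and 4489 and 619, 704 and 456 (-2.85 at 0 h, -2.47 ± 0.30 over the hours, adjusted p 3.89e-08). Neither gene's groups overlapped, which held in that direction for 11.8% of all entries. Tex13b, X-linked and named for its expression in testis, was at 1034, 721 and 614 and 64.4, 77.3 and 13.0 (-3.30 ± 0.42). The X-linked Pnma5 (-2.81 ± 0.40), Urah, an enzyme of urate breakdown (-2.51 ± 0.48), Olig1 (-2.25 ± 0.47), Islr2 (-2.03 ± 0.38), Napb (-2.02 ± 0.47), Ttc39c (-2.39 ± 0.70), Rpp25, an RNase P subunit (-1.74 ± 0.42), and the aldo-keto reductase gene Akr1b8 (-1.57 ± 0.48) followed. R3hdml was listed at 0 in EBs at 0 h against 262 in ESCs, at least 4.59-fold lower, and at -2.75 ± 0.75 over the hours. Without the 0 h pair R3hdml (-2.01), Akr1b8 (-0.60), Rpp25 (-0.97) and Ttc39c (-2.16) were not called, nor was Ttc39c without the 4 h pair (-2.50).

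The falls were not spread evenly over the chromosomes, which was noticed after the values were seen. Of 404 X-linked entries 26% were called lower and 5.2% higher, against 4.76% and 5.76% of 11564 autosomal ones. Among entries with a mean level of at least 200, 101 of 220 X-linked ones (45.9%) and 9.79% of autosomal ones were lower, and single autosomes ran from 4.23% (chromosome 8) to 15.7% (chromosome 6). The median change of these X-linked entries was -0.74 at 0 h, -0.94 at 4 h and -1.26 at 8 h. Autosome medians at 0 h ran from -0.15 (chromosome 2) to 0.13 (chromosome 8). The shift held along the whole X chromosome, where all 9 blocks of 20 Mb had a negative median at 0 h, from -0.34 to -0.98. In KO cells the X-linked median was -0.18, -0.07 and -0.14 at 0, 4 and 8 h. X-linked entries held 4.44, 5.11 and 5.15% of the summed level in WT ESCs, 3.00 to 3.13% in WT EBs, 3.55 to 3.92% in KO ESCs and 3.45 to 3.68% in KO EBs. WT ESCs thus stood above the other 3 conditions in X-linked level. Chromosome 8 held 3.78 to 4.12% of the level in WT ESCs, 4.79 to 4.86% in WT EBs and 4.20 to 4.47% in KO libraries.

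Of Y-linked genes, Ddx3y was present in WT ESCs (658, 398 and 135) and EBs (503, 278 and 182), and Uty was low in both (45.9, 23.3 and 0 against 58.8, 46.4 and 70.4). Eif2s3y was listed at 0 in WT ESCs and at 68.0, 48.3 and 93.6 in EBs, and Kdm5d at 0 in WT ESCs and at 21.8, 25.8 and 13.0 in EBs. These are few reads, as 1 read is worth 14.7, 16.1 and 17.6 in WT EBs. A 0 in WT ESCs allows up to 68.9, 74.2 and 98.1 as deposited, and no deposited EB level of either gene passed these. After scaling those bounds are 46.4, 59.7 and 88.4, while EB levels are divided by 1.15, 0.79 and 0.54. The comparison thus depends on the scaling for Eif2s3y, and a difference in either gene was not tested. Xist, the RNA of X inactivation, stood at 94.6, 125.7 and 96.2 in WT ESCs and 77.4, 86.9 and 41.2 in EBs. The X-linked genes named elsewhere as lower, Sox3, Flna, Pgk1, Tex13b, Pnma5 and Usp26, shared this shift, while the X-linked S100g and Cited1 rose. Leaving out all X-linked entries gave 621 higher and 531 lower calls. The part of chromosome content in these shifts was not tested.

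**Figure D4:**
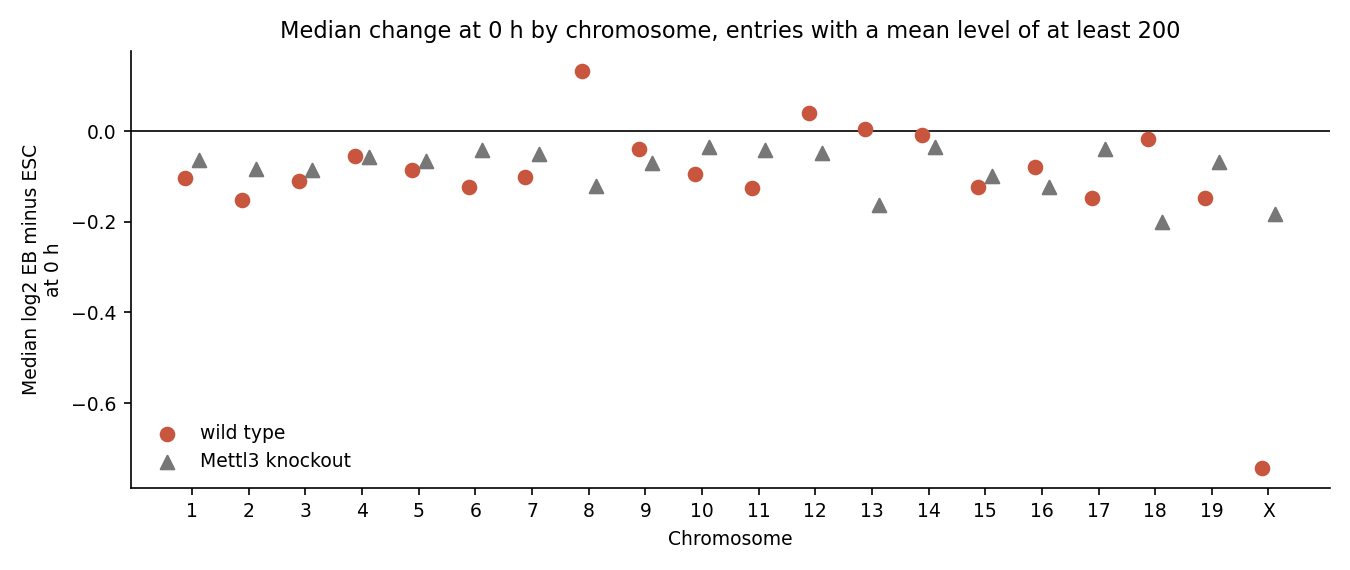
Median log2 change from ESC to EB at 0 h (vertical axis) of entries with a mean level of at least 200 on each chromosome (horizontal axis), circles for WT and triangles for Mettl3 KO. The WT median of the X chromosome is at -0.74, while WT autosomes lie between -0.15 and 0.13 and the KO median of the X chromosome at -0.18.

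Markers of the embryo's own germ layers were mostly low in both cell types. Of 22 neural genes 13 passed the limit on level, with 1 higher and 2 lower. Ina, a neuronal intermediate filament gene, was at 0, 16.3 and 0 in ESCs and 136, 95.3 and 78.8 in EBs (3.38 ± 0.92). Stmn2, a tubulin-binding gene of neurons, was lower in EBs (1597, 4324 and 4578 against 979.7, 1099 and 348, -1.43 ± 0.33), as was Stmn3 (-1.28 ± 0.43). Pax6, Neurog2 and Sox1 were below the limit, and Fabp7 was listed at 0 in all 6 libraries. Of 21 mesoderm and heart genes 6 passed it and only Pdgfra, a growth-factor receptor of mesenchyme and primitive endoderm, was called, from 13.8, 16.8 and 28.8 to 140.3, 85.6 and 171 (2.76 ± 0.66). Cardiac Tnnt2, Nkx2-5 and Myh6 and the mesoderm gene T were below the limit. Of 18 blood and endothelium genes 6 passed it and 0 were called by limma in the full fit or without any 1 pair (1 at an unadjusted p under 0.05), and embryonic globin Hba-x was listed at 0 throughout. Among 39 Hox genes only Hoxa3 passed the limit, and it was not called. Without the 4 h pair the calls of Ina (3.83), Stmn2 (-1.49) and Stmn3 (-1.65) were lost, without 8 h those of Stmn2 (-0.82) and Stmn3 (-0.96), and without 0 h that of Stmn3 (-1.24).

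Many mesenchymal and contractile genes were higher in EBs. Of 17 mesenchyme genes 12 passed the limit on level, with 8 higher and 0 lower and medians of 0.87, 2.03 and 2.27 at 0, 4 and 8 h. Among all entries 5.72% were called higher. Medians of all entries at these hours were 0.35, 0.91 and 1.12 at a mean level of 50 to 100. At 1000 to 5000 they were -0.17, -0.47 and -0.86. Growth of the list medians beyond such drift was not tested. Lgals1, galectin-1, parted at every hour (886, 1007 and 1034 in ESCs, 3042, 2682 and 2719 in EBs, 2.20 ± 0.30, adjusted p 4.69e-07). Thy1, a surface protein of fibroblasts, was at 209 and 416 at 0 h and at 43.2 and 912 at 8 h (2.99 ± 0.46). S100a4 (3.19 ± 0.47), Col1a1, a chain of type I collagen (2.43 ± 0.54), the matrix proteoglycan gene Dcn (2.91 ± 0.93) and Vim, vimentin (1.16 ± 0.34), were called, and Vim was nearly level at 0 h (0.13). Of 16 kept genes of the actin and serum response 8 were higher and 2 lower, with medians of 1.06, 0.83 and 0.88 at the 3 hours. Ccn2, a secreted target of the Yap and Srf factors, was at 799, 82.2 and 58.2 in ESCs and 1853, 886 and 521 in EBs (3.14 ± 0.39), Tagln, which binds actin, at 27.1, 99.5 and 89.0 and 359, 275 and 279 (2.68 ± 0.45), and the tropomyosin gene Tpm4 rose by 2.95 ± 0.43. Flna, filamin A, X-linked, was lower (-1.15 ± 0.28), as was Actg1, cytoplasmic gamma-actin. Leaving out 1 pair gave 3 to 10 higher calls in the mesenchyme list and 5 to 6 in the actin list. Calls lost without the 4 h pair were those of Col1a1 (1.8), Dcn (2.28), Vim (1.26) and Flna (-1.17), and without the 8 h pair those of Dcn (2.46) and Vim (0.54).

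The following lists of growth and housekeeping, cholesterol synthesis apart, had medians between -0.26 and 0.22 at 0 h. Lower calls made up 5.47% of all entries, 21.3% of those with a mean level of 1000 to 5000 and 23% of those of 5000 and over. The lists were not matched by level, so their counts of lower calls do not by themselves set them apart. Of 76 kept genes of oxidative phosphorylation 17 were lower and 0 higher, with medians of -0.16 at 0 h and -1.0 at 8 h. When scaled on entries of at least 1000 the list had 1 higher and 9 lower and a median over the hours of -0.09, against -0.56. Of 85 genes of the cytoplasmic ribosome 1 was higher and 7 lower, with a median of 0.22 at 0 h, which turned to 34 higher and 6 lower under that scaling and to 20 higher and 6 lower under cyclic loess. Those of the mitochondrial ribosome gave 1 higher and 7 lower of 77, proteasome genes 0 and 4 of 37, and cell cycle genes 1 and 7 of 31. The last included Ccnd3, cyclin D3, at 13329, 12698 and 10339 in ESCs and 3909, 2562 and 1528 in EBs (-1.59 ± 0.27), and Pcna, the DNA polymerase clamp (-0.96 ± 0.33, adjusted p 0.0499). Glycolysis genes had 1 higher and 3 lower of 18, among them Hk2, hexokinase 2 (-1.44 ± 0.32), and the X-linked Pgk1 (-1.26 ± 0.28). In cholesterol synthesis the median at 0 h was -0.61, and 1 of 19 genes was higher and 4 were lower, with Insig1, which holds the pathway back, at 1.77 ± 0.39. Without the 4 h pair Ccnd3 (-1.55), Pcna (-1.34), Hk2 (-1.43) and Pgk1 (-1.24) were not called, and the lower calls became 1 in oxidative phosphorylation and in the cell cycle, 2 in the cytoplasmic ribosome, and 0 in the mitochondrial ribosome, the proteasome, glycolysis and cholesterol synthesis. Without the 8 h pair they became 7 in oxidative phosphorylation and 2 in the mitochondrial ribosome, and without the 0 h pair 11 in the latter and 7 in the proteasome. Pcna was not called without 0 h (-0.86) or 8 h (-0.69) either.

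Regulators of chromatin and imprinted genes gave a mixed picture. Of 9 kept genes of DNA methylation 1 was higher (Dnmt3b) and 4 lower (Dnmt1, Uhrf1, Dnmt3l and Tet2), and of 11 kept Polycomb genes 2 were lower (Eed and Rnf2). Without the 4 h pair 0 of these 6 lower calls were left, and Dnmt3b was called each time. The m6A machinery had 0 called of 15 by limma at an adjusted p of 0.05 (0 unadjusted), with a median of 0.30 at 0 h. Of 18 kept imprinted genes 4 were higher and 3 lower. Igf2, the growth factor gene expressed from the paternal copy, was at 31.2, 0 and 72.6 in ESCs and 285, 228 and 307 in EBs (3.06 at 0 h, 3.63 ± 0.53 over the hours, adjusted p 2.48e-06) and Grb10 rose by 2.02 ± 0.39. Phlda2 (636, 536 and 961 against 131, 143 and 91.5, -1.77 ± 0.38) and Cdkn1c (-1.46 ± 0.43) were lower. Among 15 kept p53 targets 3 were higher (0 without the 4 h pair), led by Cdkn1a, the cell cycle inhibitor p21, which was at 377 and 504 at 0 h (0.77) and parted after actinomycin (2.23 ± 0.48 over the hours). Of 8 kept germ-line genes 0 were higher and 1 lower (Stra8, -2.71 ± 0.74). Without the 4 h pair Cdkn1c (-1.09), Cdkn1a (1.55) and Stra8 (-2.63) were not called, and without the 0 h pair not Cdkn1c (-1.35).

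The size of the change differed with the hour. For entries called higher the median change was 1.69, 2.22 and 2.36 at 0, 4 and 8 h, and for those called lower -0.93, -1.26 and -1.60. Both directions were smallest before actinomycin, but medians of all entries, called or not, drifted too. From 0 to 8 h they went from 0.35 to 1.12 at a mean level of 50 to 100 and from -0.17 to -0.86 at 1000 to 5000. Growth of the called changes beyond that drift was not tested. At 0 h, 681 of the 690 higher and 658 of the 660 lower calls already had their sign. Of the entries at least 4-fold apart at 0 h, 40 of 411 higher and 46 of 126 lower ones had the other sign at 8 h. Pkd1l2 shows the first kind, at 17.0, 24.7 and 92.9 in ESCs and 1139, 58.0 and 31.7 in EBs, and Klf4 and Spry4 the second. All of them lay under or near 3 reads at 8 h, worth 98.1 in ESCs and 52.8 in EBs. As deposited, Klf4 (62.8 and 53.8) and Spry4 (65.4 and 59.8) were still lower in EBs then. Hs3st1, an enzyme gene of heparan sulfate synthesis, also dropped in EBs after 0 h (972, 223 and 131) but stayed above ESCs (19.3, 48.5 and 0). For such transcripts the mean over the hours mixes untreated with treated levels. Pkd1l2, Hs3st1 and Spry4 were chosen after their values were seen.

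The same entries were set beside the libraries labelled knockout for Mettl3, the catalytic subunit of the enzyme that writes the RNA mark m6A, to see which WT changes differ in size there. Mettl3 was at 251, 64.8 and 113 in WT ESCs and 175, 86.0 and 77.4 in WT EBs, against 98.1, 65.4 and 41.8 in KO ESCs and 16.8, 40.7 and 83.9 in KO EBs. It was lower in KO cells at 0 h but not at every hour, and the labels do not say which part was deleted, so that reads from a 3′ end outside it would check nothing. The difference of the 2 changes (WT minus KO, fitted over 12 libraries) was called for 225 entries (1.87%) with the WT change higher and 205 (1.7%) with it lower. Without the 4 h libraries 146 entries were called in all, without those of 8 h 229 and without those of 0 h 486. The split was 178 and 97 on deposited levels, 314 and 184 under equal totals, 385 and 113 on ribosomal protein genes, and 390 and 138 on entries of at least 1000. Entries called higher in WT EBs had a median change of 2.09 in WT and 0.40 in KO cells, and 183 of the 690 differed with the WT change higher and 1 with it lower. Those called lower had medians of -1.28 and -0.23, and 158 of the 660 differed. Part of that gap follows from choosing the entries by their WT change.

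The endoderm genes changed little in the KO libraries. In the secreted list 7 of 12 entries differed with the WT change higher, in the uptake list 11 of 16 and in the basement membrane list 11 of 17, and the median KO changes were 0.35, -0.07 and -0.02. S100g was at 118, 96.9 and 51.5 in KO ESCs and 8.07, 60.5 and 66.1 in KO EBs, below the WT EB levels at every hour (WT minus KO 7.63 ± 0.75, limma adjusted p 1.27e-07). Pga5, a pepsinogen gene, was at 106, 27.2 and 45.1 in WT ESCs and 1437, 1210.3 and 1449 in WT EBs, but at 329, 243 and 283 in KO ESCs and 30.6, 35.4 and 46.7 in KO EBs (7.15 ± 0.59). Fxyd3 (6.95 ± 1.07), Car4 (6.77 ± 0.67), Pth1r (6.64 ± 0.54) and Ttr (6.33 ± 0.82) followed, and Col4a1 stayed at 86.3 to 201 in all 6 KO libraries (5.09 ± 0.48). Grem1 was high in the EBs of both genotypes, with a KO change of 4.28 against a WT change of 5.06, and the difference was not called (0.84 ± 0.69, adjusted p 0.612). In the other direction Stra8, a gene of meiotic entry, fell in WT and was at 16.1, 51.0 and 0 in KO ESCs and 201, 175 and 124 in KO EBs (-5.98 ± 0.88). Tex13b (-5.90 ± 0.75), Usp26 (-4.43 ± 0.81), Kiss1 (-4.41 ± 0.87), Col9a2 (-4.32 ± 0.54) and Cdx1 (-4.32 ± 0.97) were the others with the largest such differences. Kiss1 and Cdx1 were not called in WT alone (-0.90 ± 0.65 and -2.83 ± 1.09). Nanog differed by -2.04 ± 0.39 (adjusted p 0.00157) and Pou5f1 by -1.33 ± 0.25, while Esrrb (-1.46 ± 0.43) and Zfp42 (-1.18 ± 0.37) did not pass.

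**Figure D5:**
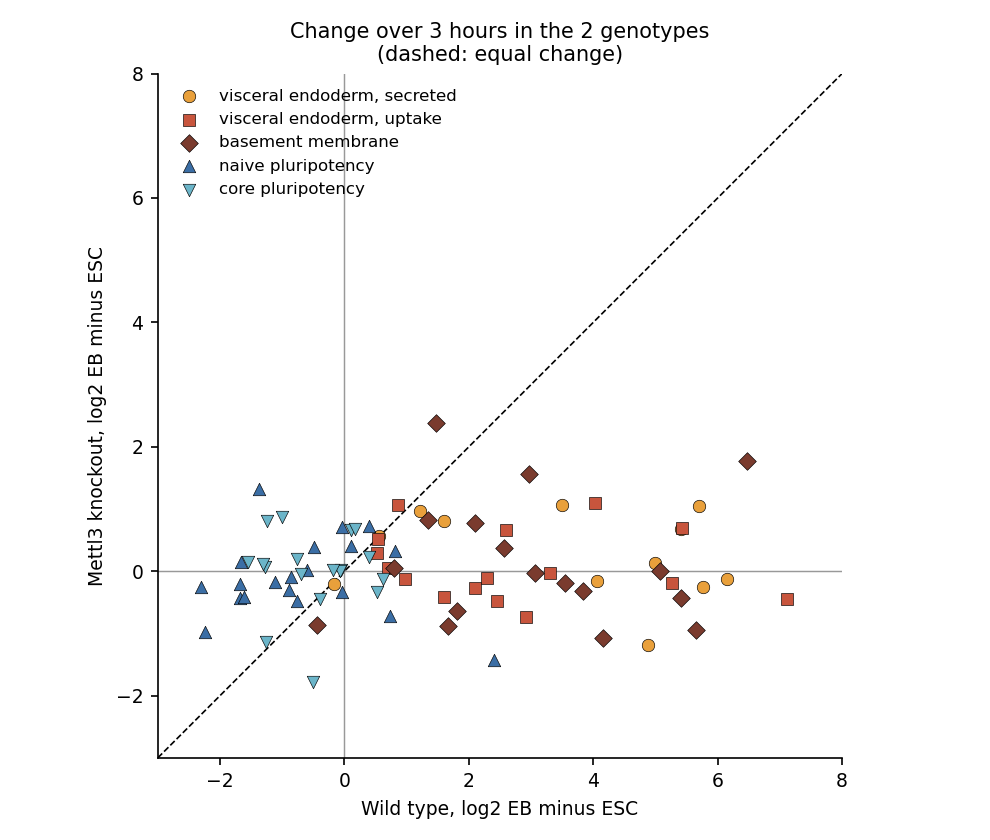
Log2 change from ESC to EB over the 3 hours in WT (horizontal axis) against Mettl3 KO cells (vertical axis) for the genes of 5 lists that passed the limit on level (1 point a gene). The endoderm and basement membrane genes reach 7.12 in WT and lie between -1.19 and 2.39 in KO cells, below the dashed line of equal change for all but a few.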

How the data were processed

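RNA from mouse ESCs and EBs, WT and Mettl3 KO, was sequenced from polyadenylated 3′ ends, 1 library for each genotype, cell type and hour, and samples were grouped by these labels. The deposited table gives a normalized signal per RefSeq transcript, made by the authors. CASAVA 1.8.2, Bowtie, Bowtie2 2.1.0 and build mm10 are named per the submitters' processing notes, and the counting and scaling steps are not given in the sources used here. In each library a single small value recurred, and 99.844 to 99.982% of levels under 100 were whole multiples of that value divided by 50, within 0.1 of a step. That value was taken as 1 read, so read equivalents, Poisson intervals and the limit of 3 reads rest on this reading and cover counting error only.

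Of 19746 entries, 19535 matched RefSeq by identifier (GRCm38.p6), 98 GENCODE only and 113 neither, and 38 identical duplicates were dropped. Columns were scaled by the median ratio. Changes were tested with limma 3.58.1 (R 4.3.3) on log2(scaled level + 10) with a variance trend, the hour as a block and Benjamini-Hochberg adjustment over 12064 entries, and so understate low genes. The difference between genotypes used 12 libraries with a block for each genotype and hour. The procedure was tested on simulated data. Scaling, pseudocount, filter, background, pairing, libraries and variance trend were varied, and scaling on entries of at least 1000, cyclic loess and leaving out X-linked entries were added after seeing the data.

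The members and all lists were chosen with earlier results of these data known. Named genes are the 12 largest rises and falls at 0 h among calls with 1 sign at all hours, 10 pluripotency factors, up to 6 members of each list, up to 6 genes at 0 in 1 cell type and the 6 largest differences between genotypes in each direction, and genes added beyond that rule to show a list were chosen after their values were seen. Some members counted in the lists are not reported here by name.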

Additional observations from a re-analysis of the deposited data

Results flagged for a closer look

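For 72 of the named genes the change from ESC to EB differed between WT and KO cells in limma's test of the difference itself over 12 libraries (adjusted p under 0.05). Of these, 26 were not called without the 4 h libraries, 13 without the 8 h libraries, 10 without the 0 h libraries, 28 without the variance trend and 17 at a pseudocount of 1. The 26 were Rbp4, Fgb, Cubn, Lrp2, Krt19, Tfap2c, Tinagl1, Nanog, Tcl1, Tet2, Klf2, Pou5f1, Tdgf1, Otx2, Sox4, Sox3, Dnmt3l, Pnma5, Ttc39c, Islr2, Tagln, Ccn2, Grb10, Ccnd3, Pgk1 and Cdx1. The values below are WT minus KO, on the log2 scale, and genes that were named for their WT change are expected by that choice to lie on its side. Secreted visceral endoderm genes differed by Afp 4.76, Ttr 6.33, Apoa1 4.71, Apom 6.12, Rbp4 4.91, Fgb 4.30 and Spink1 6.10. Uptake and lysosome genes differed by S100g 7.63, Ctsh 4.79, Dab2 5.51, Cubn 2.99, Amn 3.36, Lrp2 2.95, Ctsl 1.95 and Lgmn 3.68. In the basement membrane list the values were Col4a1 5.09, Col4a2 5.87, Lama1 5.25, Lamb1 4.17, Lamc1 2.47, Sparc 2.56, Plat 4.76, Pth1r 6.64, Serpinh1 3.75 and Fst 3.11. Cited1, the keratins and Tfap2c gave Cited1 4.39, Krt8 5.16, Krt18 5.22, Krt19 2.95 and Tfap2c 2.16, and other membrane, channel and enzyme genes Car4 6.77, Tinagl1 3.16, Clic6 4.29, Aqp8 6.01, Cyp26a1 5.74, Fxyd3 6.95 and Pga5 7.15.

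Pluripotency genes that were lower in WT EBs differed by Nanog -2.04, Tcl1 -1.23, Tet2 -1.79, Pou5f1 -1.33, Tdgf1 -1.68 and Dppa5a -2.04. Dppa3 and Klf2 lay on the other side, with Dppa3 3.86 and Klf2 1.48. Among formative genes the values were Otx2 3.00, Dnmt3b 2.63, Cldn6 4.05 and Sox4 2.03, and Sox3 -2.64, Dnmt3l -1.41 and Etv4 -2.09 for 3 genes lower in WT EBs. The largest negative differences and other large WT falls were Stra8 -5.98, Tex13b -5.90, Usp26 -4.43, Kiss1 -4.41, Col9a2 -4.32, Cdx1 -4.32, Pnma5 -3.82, Ttc39c -3.38, Laptm5 -2.36 and Islr2 -3.12. Neural, mesenchymal, actin, imprinted and cholesterol genes gave Ina 4.42, Lgals1 2.08, Tagln 2.52, Tpm4 3.23, Ccn2 2.73, Igf2 4.80, Grb10 2.30 and Insig1 2.19, and Ccnd3 -1.37 and Pgk1 -1.91 were the remaining genes.

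Among these genes Klf2 was called between genotypes without being called in WT alone, as were Kiss1 and Cdx1.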

How the results depend on the processing

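Over the 3 hours 1350 entries were called in WT (690 higher, 660 lower). The totals were 2492 on deposited levels (300 and 2192), 754 at a pseudocount of 1 (327 and 427), 2581 without a filter (1764 higher), 418 without pairing by hour (210 and 208), 469 without the variance trend (379 and 90) and 870 under cyclic loess (379 lower). Higher calls were 266 at a mean level of at least 200 and 1513 (291 lower) when scaled on entries of at least 1000. With all 12 libraries there were 2043 calls paired by hour (1086 higher), and 1038 higher with a line over hours. Leaving out 1 pair gave 347 to 1633 calls, 228 to 825 higher and 119 to 808 lower. The 411 entries at least 4-fold higher at 0 h were 621 at a pseudocount of 1 and 123 at 50. The 126 at least 4-fold lower were 199 and 39, and 297 on deposited levels, 196 on ribosomal protein genes and 195 under cyclic loess. The 430 differences between genotypes were 275 on deposited levels, 265 at a pseudocount of 1, 111 without the trend and 146 to 486 with 1 hour left out. The sign turned for Sox2 (0.14 under equal totals, 0.10 on ribosomal protein genes, 0.39 on entries of at least 1000, 0.26 under cyclic loess, -0.46 to 0.33 with a pair left out), Klf4 (-1.50 to 0.15 with a pair left out) and Gata6 (-0.16 under cyclic loess). The median change of all entries was 0.10, and -0.54 on deposited levels, 0.30 under equal totals, 0.27 on ribosomal protein genes, 0.54 on entries of at least 1000 and 0.01 under cyclic loess. The cause of these shifts was not tested, and the depth of the 8 h EB library limits low genes most.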
